A study of Mus musculus with 4 samples.

Results

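Expression of the apolipoprotein L family was examined in the 2 lymph nodes that drain the pancreas of the NOD mouse. The family was defined by 8 gene symbols (Apol6, Apol7a, Apol7b, Apol7c, Apol7e, Apol8, Apol9a and Apol9b), and every array probe whose transcript accession belonged to one of them was taken. Of the 41174 probes on the array, 5 matched, and they measured 3 of the 8 genes. Apol7c and Apol7a had a pair of probes each and Apol9b had 1, while Apol6, Apol7b, Apol7e, Apol8 and Apol9a had no matched probe and are not analysed here. The family was picked because Apol7c had the largest difference of the series. The values of Apol7c are therefore given as a description with no test, and the family as a whole is no evidence for its direction. Apol10a and Apol10b, other genes of the same family, had 1 matched probe each and are shown beside the members.

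The samples were the gastric (left pancreatic) and the pancreatico-duodenal (right pancreatic) node of 4 female NOD mice, 12 weeks old. NOD is an inbred strain that develops autoimmune diabetes spontaneously, and no treatment or allele beyond the strain was listed. Both nodes of a mouse were hybridised to 1 array, the gastric node in Cy5 and the pancreatico-duodenal node in Cy3. Ratios are gastric over pancreatico-duodenal node on the log2 scale, so that negative values mean less in the gastric node. The dyes were never exchanged, so node and dye cannot be told apart for any probe. Whole nodes were homogenised, and fewer cells of a type cannot be told apart from less RNA per cell.

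Apolipoproteins L are membrane-active proteins related to human APOL1, the ion channel-forming trypanosome lytic factor of serum, and most of them act inside cells rather than on lipoprotein particles. The mouse genes lie in 1 cluster. Apol7c has been described in dendritic cells, where its protein is drawn to phagosomes that hold antigen, and the Apol9 genes are known as interferon-induced genes. Dendritic cells carry antigen from tissue to the draining node and present it to T cells there.

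Across the series 67.6% to 71.8% of spots were well above background in the gastric and 60.2% to 63.1% in the pancreatico-duodenal channel, and no spot was saturated. Only probes that 1 channel showed well above background in 3 or more mice were tested, 27603 in all, and 4 of the 5 member probes were among them. All 8 B cell and all 9 T cell genes looked for, the defining markers of lymphoid tissue, were above background. The exocrine pancreas genes stood apart in mouse 3, where all 14 had their lowest ratio and their median was -4.75, against -0.28, 0.21 and 0.76 in mice 1, 2 and 4. The adipocyte genes varied between mice as well, with medians of 1.99, -1.93, 0.59 and -1.67 in mice 1 to 4 and summed normalised signals of 4556 to 42108 in the gastric and 4841 to 45000 in the other node. The threshold of the test was an adjusted p under 0.05 (limma). No probe of the array passed it without mouse 2, or after the arrays were scaled to a common spread of ratios, and 5 and 3 passed without mouse 3 or 4, so the counts of calls given below rest on each of these 3 mice.

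The sequences before the transcription starts are shown first, so that the measured genes of the family can be set beside each other in letters as well as in values. RefSeq promoter entries (GRCm38.p6) exist in the table used for 7 of the 8 members, all but Apol6, and each spans 250 bases before to 50 bases after the start. Both strands were searched for the core of the interferon-stimulated response element, which is GAAA followed by any 2 bases and GAAA again, and for a pair of AGGTCA, the core that nuclear receptors bind, repeated with 1 base (DR1) or 5 bases (DR5, the retinoic acid type) of any kind between them. The DR1 repeat was added after the Apol7c sequence had been seen. Capitals mark the matches. Apol10b is included because it passed the test below. No value here tests whether a motif bears on a ratio.
Apol7c (chr15:77533266-77533565, minus strand): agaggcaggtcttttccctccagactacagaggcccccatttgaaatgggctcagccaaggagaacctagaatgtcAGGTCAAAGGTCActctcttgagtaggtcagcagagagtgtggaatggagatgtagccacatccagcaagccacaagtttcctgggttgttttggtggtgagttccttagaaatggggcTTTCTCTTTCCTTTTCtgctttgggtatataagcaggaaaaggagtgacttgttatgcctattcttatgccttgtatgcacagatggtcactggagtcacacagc
Apol7a (chr15:77399061-77399360, minus strand): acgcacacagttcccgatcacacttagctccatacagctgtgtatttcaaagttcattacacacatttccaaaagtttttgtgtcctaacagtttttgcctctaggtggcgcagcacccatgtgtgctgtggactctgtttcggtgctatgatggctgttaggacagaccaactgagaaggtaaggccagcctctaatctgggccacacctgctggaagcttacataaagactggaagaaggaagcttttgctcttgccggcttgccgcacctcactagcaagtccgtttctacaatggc
Apol9b (chr15:77728822-77729121, plus strand): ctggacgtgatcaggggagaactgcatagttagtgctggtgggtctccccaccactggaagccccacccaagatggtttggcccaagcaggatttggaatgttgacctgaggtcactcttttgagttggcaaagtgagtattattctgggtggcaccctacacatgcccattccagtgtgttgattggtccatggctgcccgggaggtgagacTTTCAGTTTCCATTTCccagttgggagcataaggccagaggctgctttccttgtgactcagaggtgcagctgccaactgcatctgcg
Apol10b (chr15:77596076-77596375, minus strand): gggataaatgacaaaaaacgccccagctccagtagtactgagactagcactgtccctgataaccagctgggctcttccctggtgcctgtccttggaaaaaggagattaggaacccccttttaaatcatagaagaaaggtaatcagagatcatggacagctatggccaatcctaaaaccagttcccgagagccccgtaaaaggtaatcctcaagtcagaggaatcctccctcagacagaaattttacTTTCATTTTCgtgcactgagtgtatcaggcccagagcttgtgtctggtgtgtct

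The Apol7c promoter held a pair of overlapping interferon element cores on the strand opposite to the printed one. Their first bases were at positions -55 and -49 from the start, and a DR1 repeat had its first base at -174. The Apol9b promoter held such an overlapping pair as well, at -37 and -31. The second listed start of Apol9b has it at -86 and -80. Apol10b held 1 core, at -4, Apol10a held 1 core, at -51, and the Apol7a promoter held none of the motifs. The interferon core occurred in 3.44% of 32851 promoters of the same length, and the DR1 repeat in 0.0396%, which is 13 promoters. The wider DR5 repeat occurred in 3 promoters and in no family promoter. A match is a run of letters, not a shown binding site.

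Promoters of several members were near copies. Over the aligned part, those of Apol7b and Apol7e were identical at 99.3% of 295 bases and those of Apol9a and Apol9b at all 278 bases. The Apol7c promoter was identical to that of Apol7b at 90.8% and to that of Apol7e at 90.6% of the aligned bases, but neither held the DR1 repeat and only Apol7e, of that pair, held the interferon cores. Probe sequences were not used here. Whether a probe named Apol7c or Apol9b also binds transcripts of these close relatives was not tested.

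Apol7c was lower in the gastric node of every mouse on both of its probes. On the brighter probe, A_51_P239177, the scanned mean signal of the gastric node was 1154, 685, 448.5 and 1047 in mice 1 to 4 over backgrounds of 42.5 to 44.5. The pancreatico-duodenal signals were 4748, 3941, 4277 and 3093 over backgrounds of 18 to 22.5. After normalization the log2 ratios were -3.14, -3.50, -4.08 and -2.73, a mean of -3.36 ± 0.57 (SD, n = 4) or a 10.3-fold lower level. The difference was deepest in mouse 3 and shallowest in mouse 4, and the exocrine pancreas genes also had their lowest ratios in mouse 3 and their highest in mouse 4. Their summed normalised signal was 12274 to 72850 in the gastric and 7279 to 2165134 in the other node. Without mouse 3 the mean of this Apol7c probe was -3.13, and the part of pancreatic RNA in the order of the mice was not tested.

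The dimmer probe, A_52_P407171, showed the same order of mice with smaller differences. Its ratios were -2.39, -2.56, -2.88 and -2.08, a mean of -2.48 ± 0.33 (SD, n = 4) or 5.58-fold. The brighter probe was lower than the dimmer one by 0.76, 0.94, 1.20 and 0.65 log2 units in mice 1 to 4, on the mean by 0.89 ± 0.24 (SD, n = 4). Both probes read the same RNA of the same mice, so they are not replicates of each other. The size of the Apol7c difference thus depended on the probe, by a mean that exceeded the SD over mice of either probe, while its direction did not.

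**Figure D1:**
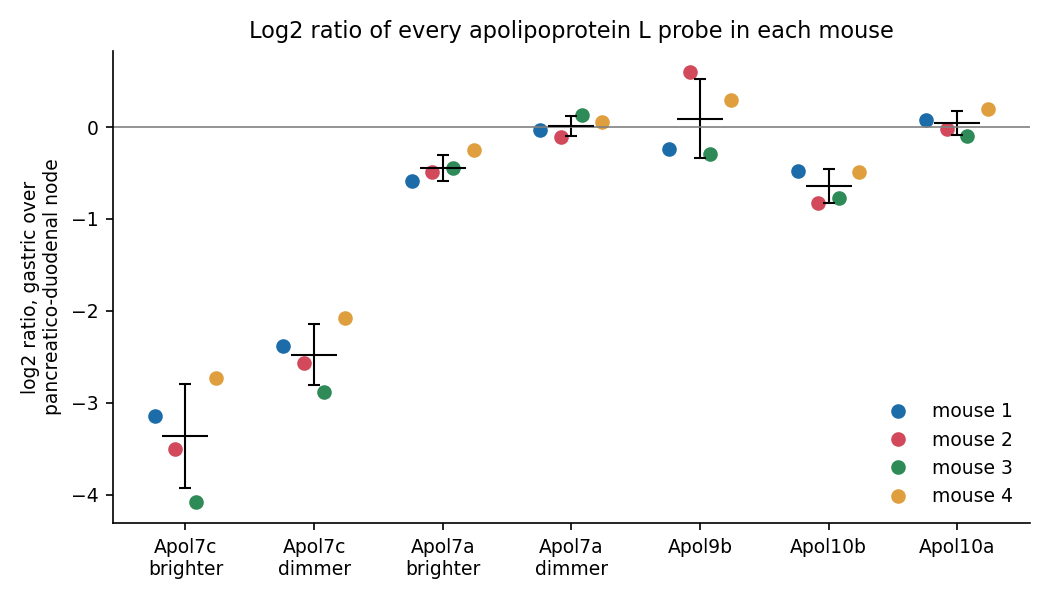
Log2 ratio of gastric over pancreatico-duodenal node (vertical axis) for each of the 7 apolipoprotein L probes, 1 point per mouse, with the mean (bar) and SD (whiskers) over 4 mice. Both Apol7c probes lie between -4.08 and -2.08, the brighter Apol7a probe and Apol10b lie below 0 in every mouse, and Apol9b lies on both sides of 0; the dimmer Apol7a probe was not above background in either node.

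The spread of Apol7c between mice lay more in the gastric than in the pancreatico-duodenal node. On the scale of normalised log2 signal, the brighter probe ranged from 8.58 to 9.55 in the gastric node (mean 9.11, SD 0.49, n = 4) and from 12.25 to 12.69 in the other (mean 12.47, SD 0.23, n = 4). The nodes did not overlap, and 2.70 log2 units lay between the highest gastric and the lowest pancreatico-duodenal value. Signals of both nodes were apart in this way for 7.92% of all tested probes with the gastric node lower and for 8.39% with it higher. The gastric SD of this probe exceeded that of 99.2% of tested probes, and its SD in the other node exceeded that of 89.2%. For the dimmer probe the SDs were 0.32 and 0.26, above those of 97.2% and 91.2% of probes, and its nodes were 1.77 log2 units apart. The median SD of all tested probes was 0.10 in the gastric and 0.11 in the pancreatico-duodenal channel.

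**Figure D2:**
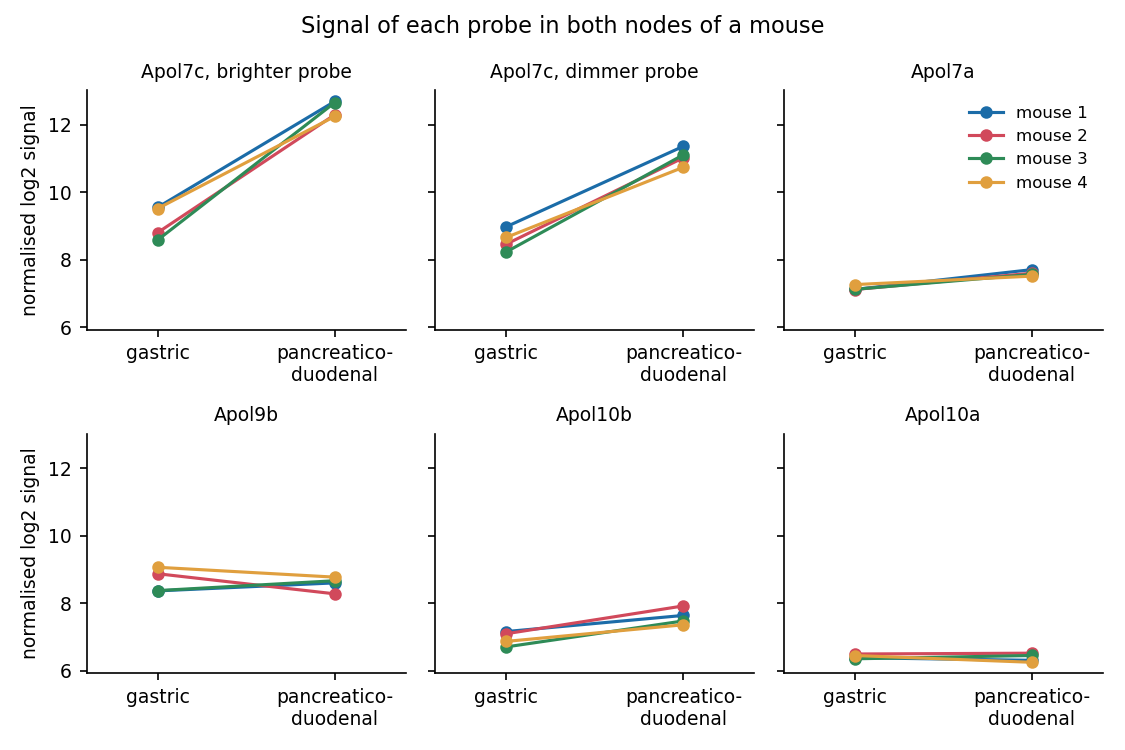
Normalised log2 signal (vertical axis) of 6 apolipoprotein L probes in the gastric and the pancreatico-duodenal node, with a line joining both nodes of a mouse. The Apol7c lines rise steeply to the pancreatico-duodenal node in all 4 mice, from 8.58 to 9.55 up to 12.25 to 12.69 for the brighter probe, whereas the Apol9b lines cross.

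By rank, the brighter and the dimmer Apol7c probe were the lowest and the second lowest of the 27603 mean ratios, which is how the family was picked. Within single mice the brighter probe was the lowest in mice 1 and 4 and the second lowest in mouse 2, after S100a9, a gene of neutrophils. In mouse 3 it was only in place 33, although its ratio was deepest there. The lowest ratios of that mouse were those of pancreatic genes, with Reg1 at -7.84, Cpb1 at -6.75 and Amy1 at -6.73.

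**Figure D3:**
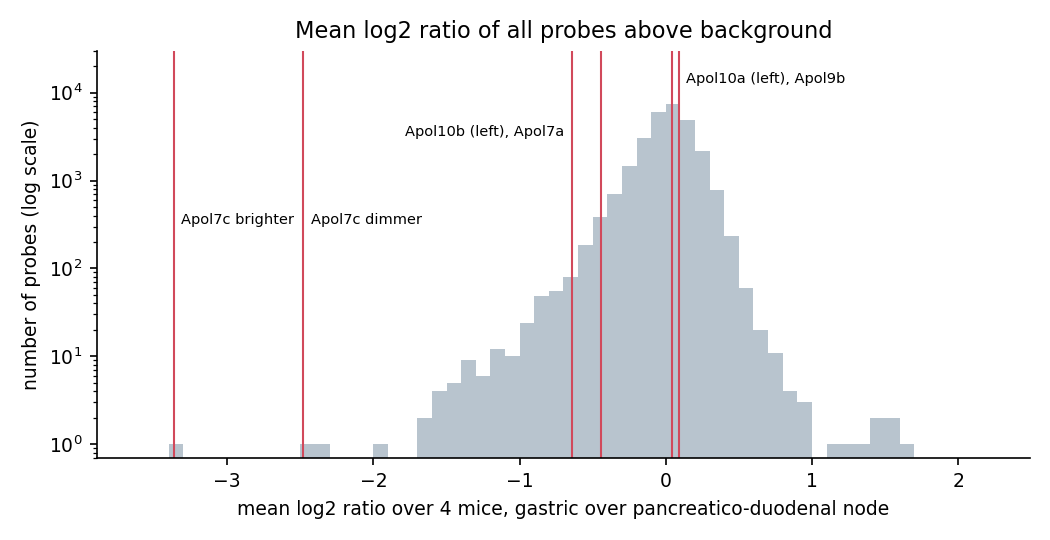
Number of probes (vertical axis, log scale) by mean log2 ratio over 4 mice (horizontal axis) for the 27603 tested probes, with red lines at the 6 tested apolipoprotein L probes. The Apol7c probes stand at -3.36 and -2.48, apart from the bulk, Apol10b and Apol7a at -0.64 and -0.44 on its lower side, and Apol10a and Apol9b at 0.04 and 0.09 near its centre.

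Among the 2 tested member probes other than those of Apol7c, 1 fell and none rose, against 4.92% of all tested probes lower and 2.99% higher (limma, adjusted p under 0.05). With median centring in place of loess 16108 probes of the array were higher and 2859 lower, against 826 and 1359 here, and both member probes passed, Apol7a lower and Apol9b higher. The one that fell was the brighter Apol7a probe, A_52_P360742. Its ratios were -0.59, -0.48, -0.44 and -0.25 in mice 1 to 4, with a mean of -0.44 ± 0.14 (SD, n = 4) or 1.36-fold lower (limma, adjusted p = 0.0271). Its scanned signal was dim, at 180, 176, 137 and 186 in the gastric and 152, 153, 134 and 128 in the pancreatico-duodenal channel. Before background removal and normalization it was thus higher in the gastric channel of every mouse. The median over all spots but controls was higher there too, at 115 to 155 against 87.3 to 95.9. The normalised log2 signals of the nodes were nonetheless apart, at 7.11 to 7.26 and 7.51 to 7.70. The order of mice was not that of Apol7c, since mouse 1 was the lowest, although mouse 4 was the least low for both genes.

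The other Apol7a probe, A_51_P497724, was not well above background in either node of any mouse. Its scanned signals were 54.5 to 58.5 in the gastric and 46.4 to 51.1 in the pancreatico-duodenal channel, and no fold is given. The Apol7a call therefore rested on 1 dim probe. It was lost when the arrays were scaled to a common spread (adjusted p = 0.0701) and without mouse 2, 3 or 4 (adjusted p = 0.144, 0.0882 and 0.139), each time with the same sign.

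Apol10b, the tested gene next to Apol7c on one side, fell as well. Its ratios were -0.48, -0.83, -0.77 and -0.49, with a mean of -0.64 ± 0.18 (SD, n = 4) or 1.56-fold lower (limma, adjusted p = 0.0221). Here mice 2 and 3 were lower than mice 1 and 4, and the normalised log2 signals were apart at 6.70 to 7.16 and 7.36 to 7.92. In the ratio from the scanner software the mean was -1.10 (adjusted p = 0.0289). The call was lost in the same settings as that of Apol7a, at adjusted p = 0.0760 with the common spread and 0.126, 0.0807 and 0.139 without mouse 2, 3 or 4.

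Apol10a did not pass, at 0.08, -0.02, -0.10 and 0.20 with a mean of 0.04 ± 0.13 (SD, n = 4; limma, adjusted p = 0.692). It was well above background in all 4 gastric but in only 1 of 4 pancreatico-duodenal channels. Its mean turned to -0.14 with median centring in place of loess and to -0.01 without mouse 4. Of the family genes outside the 8 symbols, 1 of 2 tested was thus lower and none higher, against 6.38% lower and 2.42% higher of all 13401 genes, each by its brightest probe. Apol7d, Apol11a, Apol11b and Apold1, also looked for, had no matched probe.

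Apol9b, an interferon-induced member, did not move in 1 direction. Its ratios were -0.24, 0.60, -0.29 and 0.29 in mice 1 to 4, with a mean of 0.09 ± 0.43 (SD, n = 4; limma, adjusted p = 0.726). Mice 2 and 4 were above 0 and mice 1 and 3 below, and the normalised log2 signals of the nodes overlapped, at 8.36 to 9.06 and 8.28 to 8.77. The adipocyte medians had the opposite sign to Apol9b in each mouse, and their part in its ratios was not tested. The mean turned to -0.08 without mouse 2. With median centring it was 0.48 and passed (adjusted p = 0.0327), in a setting that moved the median of all tested probes to 0.29, so that Apol9b lay 0.19 above that median. The SD of its ratio exceeded that of 96% of tested probes, which only the brighter Apol7c probe among family probes surpassed (98.3%).

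Genes of the type I interferon response, the pathway that induces Apol9b elsewhere, were set beside Apol9b. None of 25 measured genes of this list passed in either direction (limma, adjusted p under 0.05). Of all 13401 genes, each by its brightest probe, 6.38% were lower and 2.42% higher at that threshold. At an unadjusted p under 0.05 there were 3 genes of the list (limma), against 8366 of the 27603 tested probes. The list median was -0.19, 0.45, -0.41 and -0.14 in mice 1 to 4. In mouse 2, where Apol9b was highest, 23 of the 25 genes had their highest ratio of the 4 mice, against 20.3% of all genes. The interferon-induced genes Ifit1 (1.18), Ifit3 (1.31) and Isg15 (1.02) were above 1 there, and in mouse 3 they were at -1.15, -0.96 and -0.75 (chosen after their values were seen). Apol9b differed from the list in mouse 4, where it was at 0.29 and the list median was below 0. Bst2, an interferon-induced gene of the list whose product tethers virus particles to cells, had a mean of -0.28 ± 0.21 (SD, n = 4), which did not pass. In the interferon gamma response list none of 16 genes passed (limma; 3 at an unadjusted p under 0.05), and 7 had their highest ratio in mouse 2. Its brightest genes, Irf1 and Igtp, were at 0.00 ± 0.06 and 0.37 ± 0.19 (SD, n = 4).

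None of the 5 tested genes beside the members on the chromosome was as low as Apol7c. Among them Apol10b was called lower, at a mean of -0.64. The window from 3 genes before to 3 genes after each member held 34 genes, 26 of them no members, and 5 of these were tested. By their order in the RefSeq table (GRCm38.p6, used here for order only), Apol10a lies on one side of Apol7c, beyond the unmeasured Apol11a, and Apol10b on the other side, beyond a long noncoding RNA gene. Rbfox2, which encodes a splicing regulator and lies between Apol6 and Apol7a, was at 0.03 ± 0.12 and did not pass (SD, n = 4; adjusted p = 0.784). Its mean turned to -0.03 without mouse 1 and to -0.0081 with a common spread. Myh9, which encodes a nonmuscle myosin heavy chain and follows Apol8, was higher at 0.37 ± 0.11 (SD, n = 4; adjusted p = 0.0292), a call that was lost in 7 of the alternatives, while median centring gave 1.17 (adjusted p = 0.000247). Txn2, the mitochondrial thioredoxin gene, was at 0.05 ± 0.13 (SD, n = 4; adjusted p = 0.612), at -0.01 without mouse 3, and called higher only with median centring (0.57). Mb, the myoglobin gene, had a probe that was not above background in enough arrays.

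**Figure D4:**
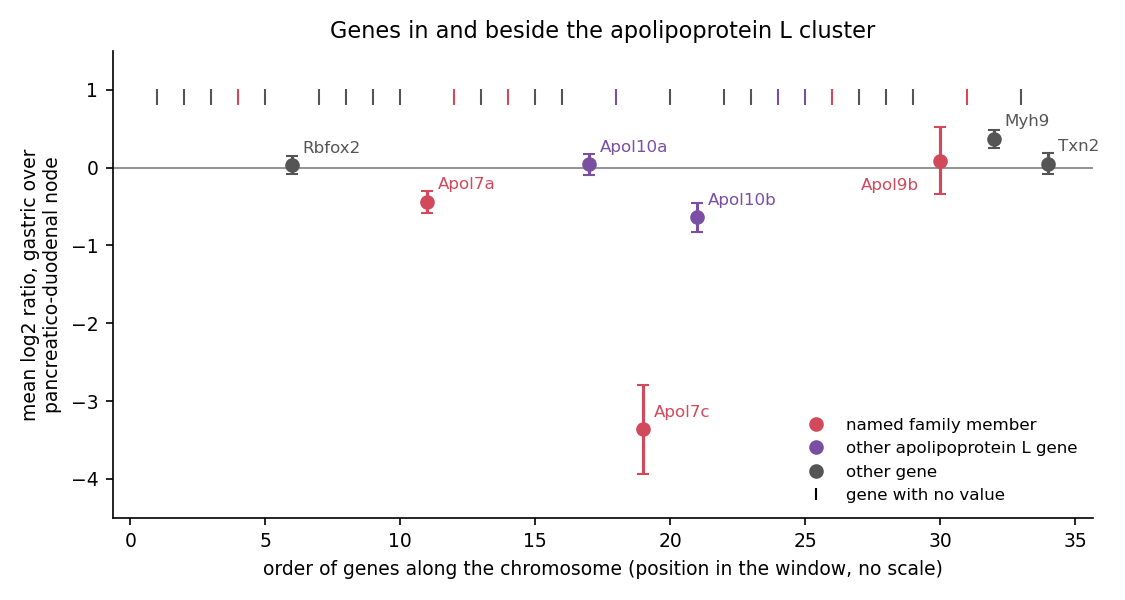
Mean log2 ratio of gastric over pancreatico-duodenal node with SD over 4 mice (vertical axis) for genes in their order along the chromosome (horizontal axis, position among 34 genes, not to scale); ticks at the top mark genes with no tested probe. Apol7c at -3.36 stands alone, with Apol10a at 0.04 and Apol10b at -0.64 as the nearest tested genes.

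Among the other apolipoprotein genes, most of which encode carriers of blood lipids, 1 of 12 tested fell and none rose, against 6.38% lower and 2.42% higher of all 13401 genes, each by its brightest probe. It was Apobr, a lipoprotein receptor gene, at -0.39 ± 0.18 (SD, n = 4; adjusted p = 0.0433). The list median was -0.01, beside a median of 0.00 over all genes. With median centring 3 of these genes were lower and 5 higher, and with the scanner software's ratio or the series table none passed. In the reported setting 3 had an unadjusted p under 0.05 (limma), against 8366 of the 27603 tested probes.

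The genes whose 4 ratios lay closest to those of Apol7c were Dnah2, Aldh1a2, Inmt, Efemp1 and Hk3. Closeness was the root mean square difference from the brighter Apol7c probe over 4 mice, among 13396 genes with a symbol outside the family. It was far from 0 for each, at 1.41, 1.70, 1.79, 1.90 and 2.05 log2 units. Transcripts without a symbol were left out, among them the unnamed transcript with a mean of -2.30 that is given at the end. Since the Apol7c ratios were the lowest on the array, this measure mostly picks the genes with the next lowest means, here -1.99, -1.69, -1.64, -1.56 and -1.37. Dnah2, an axonemal dynein gene, was at -2.16, -2.24, -2.20 and -1.38. Aldh1a2, which encodes a retinoic acid-making enzyme of dendritic cells and stroma, was at -1.74, -1.57, -2.11 and -1.31. Inmt was at -0.91, -1.38, -2.54 and -1.72, Efemp1 at -1.09, -1.53, -1.71 and -1.90, and Hk3 at -0.79, -1.76, -1.55 and -1.37. The order of the mice was not shared: Dnah2 and Aldh1a2 were least low in mouse 4, the other 3 genes in mouse 1, and only Aldh1a2 and Inmt were deepest in mouse 3.

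Dendritic cell genes were set beside Apol7c because the gene is known from these cells. In the type 1 dendritic cell list, the subset specialised in cross-presentation, 7 of 13 tested genes fell and none rose. Of all 13401 genes, each by its brightest probe, 6.38% fell and 2.42% rose (limma, adjusted p under 0.05). The list median was -0.50, with -0.21, -0.41, -0.78 and -0.50 in mice 1 to 4. Flt3, a growth factor receptor gene, was at -0.64 ± 0.20 (adjusted p = 0.0232) and the integrin gene Itgae at -0.63 ± 0.14 (SD, n = 4; adjusted p = 0.0200). Batf3 and Irf8, transcription factor genes that define the subset, were at -0.31 ± 0.10, which passed, and -0.11 ± 0.08, which did not (adjusted p = 0.0360 and 0.194). Xcr1, its chemokine receptor gene, was at -0.52 ± 0.41 and did not pass (SD, n = 4; adjusted p = 0.0872). Clec9a, Wdfy4, Tlr11 and Zbtb46 had no matched probe. The summed normalised signal of the 13 genes was 44685 to 58527 in the gastric and 61843 to 66821 in the pancreatico-duodenal node. Irf8, the brightest of them, weighs most in this sum of unlogged signals. The part of these cells in the Apol7c difference was not tested. The count of 7 became 1 lower and 2 higher with median centring, where the list median lay 0.39 below that of all genes, 3 lower with the scanner software's ratio or the series table and 11 without mouse 1. No gene of the list passed with the arrays scaled to a common spread or without mouse 2, 3 or 4.

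In the list of mature migratory dendritic cells, with a median of -0.30, 3 of 12 genes fell and none rose. Of all genes 6.38% fell and 2.42% rose. The 3 genes of the list were Aldh1a2 (-1.69 ± 0.34), the calcium channel subunit gene Cacnb3 (-0.75 ± 0.29) and Fscn1, an actin-bundling gene (-0.65 ± 0.30; SD, n = 4; limma, adjusted p = 0.0171, 0.0270 and 0.0369). In mouse 4, where Apol7c was least low, 10 of the 12 genes had their highest ratio, against 14.8% of all genes. This was not particular to the list, since 8 of 9 T cell and all 14 exocrine pancreas genes were also highest in mouse 4, whereas 8 of 13 type 1 dendritic cell genes were highest in mouse 1 and 3 in mouse 4. In mouse 3, where Apol7c was deepest, 5 of the 12 had their lowest ratio and as many in mouse 1, against 31% and 30.7% of all genes. The summed signal of the list was 48263 to 56512 in the gastric and 56318 to 67720 in the other node. Its part in the Apol7c difference was not tested. With median centring 2 genes fell and 7 rose.

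In the type 2 dendritic cell list 1 of 9 genes fell, Clec4a2 (-0.48 ± 0.16, SD, n = 4), and none rose, against 6.38% lower and 2.42% higher of all genes. The list median was -0.03. Of its genes that did not pass, Clec10a, Itgam, Irf4 and Cd209a had means above 0, at 0.31, 0.16, 0.13 and 0.07. Sirpa, Mgl2, Klf4 and Zeb2 had means below 0, at -0.20, -0.20, -0.09 and -0.03. Median centring gave 6 higher and none lower in this list. In the plasmacytoid list none of 8 passed (limma; 2 at an unadjusted p under 0.05, against 8366 of the 27603 tested probes). Phagosome and cross-presentation genes, the machinery that Apol7c is known beside, had a median of -0.01, with 2 of 15 lower and none higher. The shares of all genes were 6.38% and 2.42%. The antigen transporter gene Tap2 was at -0.44 ± 0.11 and the chaperone gene Calr at -0.31 ± 0.08 (SD, n = 4; adjusted p = 0.0231 and 0.0308). With the scanner software's ratio or the series table none passed, with median centring 13 of these 15 were called higher and none lower, and the list median lay 0.17 above that of all genes.

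Lists of other cell types of the node also held genes that fell. Their counts stand beside 6.38% lower and 2.42% higher of all 13401 genes, each by its brightest probe (limma, adjusted p under 0.05). Of the macrophage genes 6 of 13 fell and 1 rose, with list medians of -0.18, -0.72, -1.13 and -0.65 in mice 1 to 4 and summed signals of 47617 to 76077 in the gastric and 84567 to 117733 in the other node. The brightest gene weighs most in such a sum of unlogged signals. Here it was Marco, at -0.85 ± 0.63, which did not pass (SD, n = 4; limma, adjusted p = 0.0750). Adgre1 was at -1.36 ± 0.71 and Cd163 at -1.26 ± 0.30 (SD, n = 4). The macrophage gene that rose was Folr2, at 0.74 ± 0.36 (SD, n = 4; limma, adjusted p = 0.0385). Blood endothelium had 4 of 10 lower, among them Tie1 at -0.58 ± 0.07, and lymphatic endothelium 5 of 9, among them Stab1 at -0.87 ± 0.32. The lymphatic genes Prox1, Ccl21a, Pdpn and Lyve1 did not pass, at means of -0.05, -0.0037, -0.19 and -0.91. Fibroblastic stroma had 4 of 10 lower, among them Bgn at -0.72 ± 0.14, and epithelium 1 of 5, Krt7 at -0.34 ± 0.09 (SD, n = 4). None rose in these 4 lists. Of the stromal genes that did not pass, Ccl19, Thy1, Pdgfra and Pdgfrb had means above 0, at 0.41, 0.17, 0.12 and 0.08. Dcn and Lum had means below 0, at -0.78 and -0.49. In the T cell list 2 of 9 rose, Cd28 at 0.33 ± 0.15 and Cd3g at 0.32 ± 0.14 (SD, n = 4). None passed of 8 B cell, 14 exocrine pancreas or 8 adipocyte genes. An unadjusted p under 0.05 was reached by 1, 0 and 0 of them, against 8366 of the 27603 tested probes (limma). The part of these cells in the family's ratios was not tested. With median centring, which moved the median of all genes to 0.38, genes called higher numbered 10 in the type I interferon list, 13 in the interferon gamma list, 7 each in the B cell and plasmacytoid lists and 9 in the T cell list. In the same setting the stromal list had 4 higher and 1 lower, blood endothelium 3 higher and 1 lower, macrophages 3 higher and 4 lower, lymphatic endothelium 1 higher and 5 lower and epithelium 2 lower.

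**Figure D5:**
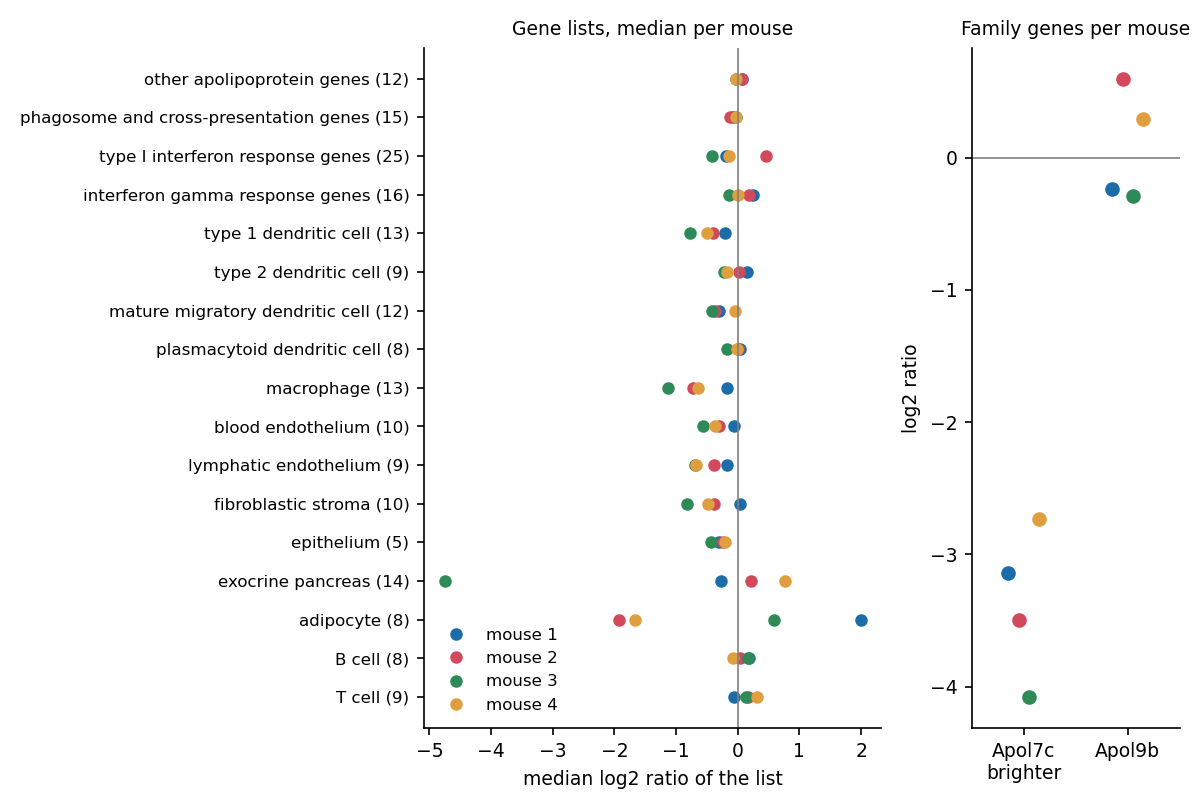
Left, median log2 ratio of each gene list (horizontal axis) in each of 4 mice (points), with the number of tested genes in brackets. Right, the log2 ratio of the brighter Apol7c probe and of Apol9b in the same mice; Apol9b and the type I interferon list are both highest in mouse 2 (0.60 and 0.45), and Apol7c is highest in mouse 4 (-2.73), as are the medians of the mature migratory dendritic cell (-0.05), T cell (0.32) and exocrine pancreas (0.76) lists among others.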

How the data were processed

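The arrays were Agilent 2-colour arrays, all 4 on 1 slide and from 1 scan per the file headers, so slide and scan could not be compared. The deposited scanner files hold mean and background intensity per spot, processed intensity and its log10 ratio, made with Agilent Feature Extraction 10.2.1.3 per the file headers. A deposited table of the whole series holds the authors' log2 ratios, which equalled the mean log ratio of processed signals over a probe's spots to within 5.11e-05. Its column medians were -0.15, -0.06, -0.03 and -0.03.

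Here background was removed from mean intensities with normexp at an offset of 50, followed by loess within arrays, in limma 3.58.1 (R 4.3.3), with control spots and outliers at weight 0. Spots of a probe were averaged. Probes were named by accession through RefSeq (GRCm38.p6), which gave 24844 of 41174 a symbol. The mean ratio of each of 27603 probes was tested against 0 with lmFit and eBayes and Benjamini-Hochberg adjustment at 0.05. Node levels used Aquantile between arrays. Summed signals of a list add unlogged node levels, so its brightest genes weigh most. Steps were tested on simulated data. Gene lists were read by each gene's brightest probe, and up to 2 genes of a list were named: those called with the largest change, or else the brightest. The values of 1 gene that this rule names are not reported here. Further genes named in the text are markers that define a list or were chosen after their values were seen. Members and lists were chosen with earlier results of these data known. Both nodes of a mouse are paired on its array.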

Additional observations from a re-analysis of the deposited data

How the results depend on the processing

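Both Apol7c probes kept their sign in every alternative run. The brighter probe ranged from -3.73 (common spread) to -2.83 (median centring) and the dimmer one from -2.72 to -2.00, the latter with median centring and by more than its SD. Leaving out each mouse gave -3.57 to -3.13 and -2.61 to -2.34. The count of 1 called probe among the other members became 2 with median centring, 0 with a common spread, and 0 to 1 with a mouse left out. Over all probes 826 were higher and 1359 lower. The counts were 494 and 738 with the scanner software's ratio, 494 and 739 with the series table, 16108 and 2859 with median centring, 0 and 0 with a common spread (limma; 8366 at an unadjusted p under 0.05 in the reported setting) and 425 and 828 with unpaired channels, that is with no replicate block for the mouse. With a mouse left out they were 0 to 1128 and 0 to 1924. Among single genes, the sign of a value that had not passed turned for Apol10a (-0.14 with median centring, -0.0145 to 0.0852 with a mouse left out), Rbfox2 (-0.0081 with a common spread, -0.0268 to 0.0651 with a mouse left out), Apol9b (-0.0791 to 0.217) and Txn2 (-0.0128 to 0.0879). The causes were not tested. Of the other single-gene values 81 kept their call, 15 lost it and 2 gained it, and of the list counts 438 stayed within 1.5 times, 69 became smaller and 33 larger. The number of arrays, 4, and the dim signals of Apol7a, Apol10a and Apol10b limit the precision.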

Other observations

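The promoter motifs were followed to other genes, a step chosen after the data had been seen. Of the 13 genes whose promoter holds the DR1 repeat of AGGTCA, 5 were measured, Apol7c among them. Of the other 4, Isca1, an iron-sulfur cluster assembly gene, was at 0.13 ± 0.09, Ranbp17 at -0.10 ± 0.11, Igsf23 at -0.01 ± 0.19 and Srp54a, a signal recognition particle gene, at 0.05 ± 0.48 (SD, n = 4), none of which passed (limma, adjusted p of 0.154 or more). Of the genes with an interferon element core in the promoter and outside the family, 410 were tested, of which 27 were lower and 13 higher, beside 651 lower and 255 higher of all 10743 tested genes with a promoter entry. In mouse 2, 24.1% of these 410 had their highest ratio, against 20% of all genes with a promoter entry. The median of the 410 was 0.02 in mouse 2 and -0.04 in mouse 3.

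An unnamed transcript, matched to no symbol, had the mean ratio next to the Apol7c probes, at -2.30. Apart from it, Dnah2 at -1.99 and Aldh1a2 at -1.69 followed.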
